A study of Mus musculus with 6 samples.

Results

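The genes described here build the membrane of the lysosome, its proton pump and the machinery of autophagy. They are 40 named genes of a table with 44788 entries, picked by symbol: 10 proteins of the lysosome membrane, 15 subunits of the vacuolar ATPase (V-ATPase) and 15 autophagy proteins. They were chosen with earlier results of these data known, so their counts beside shares of all genes are description only. All 40 were in the table, and all 40 were among the 15362 genes with enough counts to be tested. RNA was sequenced from chondrocytes, the cells that make cartilage, which came from the femoral epiphysis of C57BL/6 mice at postnatal day 1 and were cultured with 10% serum. TGF-alpha (transforming growth factor alpha) activates EGFR, the receptor of epidermal growth factor, and gefitinib is a drug that blocks this receptor's kinase.

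There were 3 groups of 2 libraries, and by the treatment protocol each group carried 0.1% DMSO. Control cells received DMSO alone for 48 h, the TGF-alpha group also received 10 ng/ml TGF-alpha for those 48 h, and the combined group received 10 µM gefitinib for 30 min and then gefitinib and TGF-alpha together for 48 h. Cells given gefitinib alone were not analysed here, so gefitinib with the ligand cannot be told apart from gefitinib by itself. The series design text names PBS as the control and describes the cells as P2, without saying what P2 means. Nothing in the labels says that the 2 libraries of a group came from separate cultures or animals, so the p-values reflect no more than the spread among these libraries, which may be technical.

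Lysosomes are acidic compartments in which cells break down material taken up from outside and, through autophagy, their own contents. The V-ATPase acidifies them: its soluble V1 sector splits ATP and turns a rotor that carries protons through the V0 sector in the membrane. In autophagy a double membrane grows around cargo, ATG8 proteins such as LC3 are attached to it, and the closed vesicle is tethered to and fused with the lysosome. Many of these genes carry a CLEAR element, a motif around the letters CACGTG that is bound by TFEB and its relatives.

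Promoter stretches of 4 genes are shown here. They hold several of these motifs or the longer form before the gene's start, which a minority of the 40 genes share. RefSeq gave a promoter, 250 bases before to 50 after the gene's start on GRCm38.p6, for 31 of the 40 genes. CACGTG, which reads the same on both strands, stood in a promoter of 9 of these 31 genes (29.0%). Among all 27025 genes with a promoter entry the share was 8.09%. The 9 were Lamp1, Mcoln1, Cln3, Atp6v0b, Atp6v0d1, Atp6v0e, Atp6v1a, Atg5 and Atg7. The longer TCACGTGAC, searched on both strands and containing CACGTG, stood in 3 of the 31 (Mcoln1, Cln3 and Atp6v0d1, or 9.68%). Among all genes with a promoter entry the share was 0.896%. In Atp6v0d1 the longer form crosses the gene's start, and its stretch is not shown. The stretch shown for Lamp1 is chr8:13159088-13159160 on the plus strand and holds 4 CACGTG, the nearest beginning 15 bases before the start. That for Atp6v0b is chr4:117887330-117887377 on the minus strand and holds 2, beginning 36 and 18 bases before the start. For Mcoln1 the stretch is chr8:3500463-3500491 on the plus strand and for Cln3 chr7:126583340-126583368 on the minus strand, and both of these lie in annotated exons of their genes (GENCODE M21). Capitals mark CACGTG in the lines for Lamp1 and Atp6v0b and TCACGTGAC in those for Mcoln1 and Cln3. A match describes the letters and does not show binding.
Lamp1: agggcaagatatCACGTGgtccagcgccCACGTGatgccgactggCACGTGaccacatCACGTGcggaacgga
Atp6v0b: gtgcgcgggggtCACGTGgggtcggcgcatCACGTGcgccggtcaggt
Mcoln1: ggcgccccgcTCACGTGACcgcggcgcat
Cln3: acgggtactgTCACGTGACccccaacctg

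The values below are CPM (counts scaled to a common library size), scaled by edgeR's TMM method, and errors on means are SD with n = 2 libraries in each group. Libraries held 12317407 to 16096263 counts. The 10 chondrocyte markers were expressed in every library, at a summed 65233 to 69844 CPM in control, 33607 to 34672 with TGF-alpha and 57811 to 60260 in the combined group. Markers of cycling cells ran the other way, at 252 to 260, 586 to 636 and 232 to 239 CPM. Fewer cells of a type and less RNA per cell cannot be told apart in these bulk samples. Mitochondrial mRNAs took 0.788% ± 0.0179, 0.826% ± 0.0206 and 0.965% ± 0.0619 of counts and the ribosomal entry Rn18s-rs5 took 1.38% ± 0.0242, 1.03% ± 0.251 and 0.721% ± 0.0912. The part of these shifts in the results was not tested.

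As a whole the 40 genes stood at 3938 and 3955 CPM in the control libraries, 3863 and 3968 with TGF-alpha, and 5174 and 5216 in the combined group. The combined libraries were the highest, and the control and TGF-alpha libraries overlapped. The summed level was thus 1.33-fold higher in the combined group than with TGF-alpha alone and 1.32-fold higher than in control. The V-ATPase genes summed to 1057 ± 7.95 CPM in control, 1044 ± 40.6 with TGF-alpha and 1468 ± 1.87 in the combined group. The lysosome membrane genes summed to 1551 ± 7.40, 1548 ± 27.1 and 2107 ± 17.6 CPM, and the autophagy genes to 1339 ± 12.9, 1323 ± 6.66 and 1620.0 ± 14.2 CPM. The combined group was 1.39-fold over control for the V-ATPase genes, 1.36-fold for the lysosome membrane genes and 1.21-fold for the autophagy genes.

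**Figure D1:**
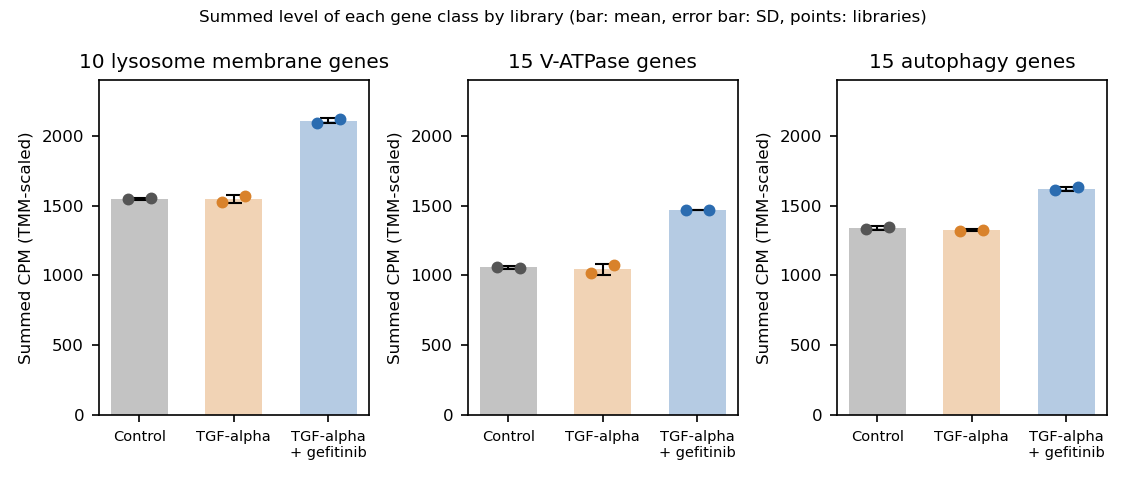
Summed CPM (y axis) of the lysosome membrane, V-ATPase and autophagy genes in each group (x axis), with bars for the mean, error bars for the SD and points for the 2 libraries. In each class both combined libraries stand above the other 4, while the control and TGF-alpha bars are nearly level.

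TGF-alpha was compared with control first, which addresses EGFR activation, the subject of the series. Genes of this set moved in both directions, and the share called was near that of all genes. Of the 40, 4 rose and 7 fell at an edgeR adjusted p under 0.05, against 15.9% of all tested genes that rose and 14% that fell (29.9% in either direction). The risers were Atp6ap2, Lamp2, Cln3 and Gabarapl1, and those that fell were Atg9a, Ulk1, Scarb2, Atp6v0c, Becn1, Npc1 and Laptm4a. The median log2 fold change of the 40 was 0.01, and that of all tested genes was 0.00. Both TGF-alpha libraries stood above both control libraries for 10 of the 40 and below them for 11. The same was found for 32.8% and 31.3% of all tested genes. Gaps between these groups, given for single genes below, were thus common among all genes. With library totals alone as the scaling, 9 of the 40 rose and 4 fell, and 65.4% of all called genes were risers in place of 53.2%, so the balance of risers and falls depends on the scaling.

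Most of these calls did not hold in every alternative setting. DESeq2 called 1 riser (Atp6ap2) and 5 falls (all but Npc1 and Becn1), and 1657 and 1435 among all genes. A test against a 1.2-fold change (edgeR's glmTreat) called 0 risers and 1 fall, and 1366 and 953 among all tested genes. The unadjusted p of edgeR's main test was under 0.05 for 6 risers and 8 falls, and for 3135 and 2856 among all tested genes. Without Control 1 the counts were 2 and 3, without Control 2 there were 2 risers, without TGF-alpha 1 there were 4 falls, and without TGF-alpha 2 there were 1 and 4. Atg9a's fall was called in all 15 alternative settings, and the calls of Scarb2, Ulk1 and Atp6ap2 in all but the test against 1.2-fold.

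**Figure D2:**
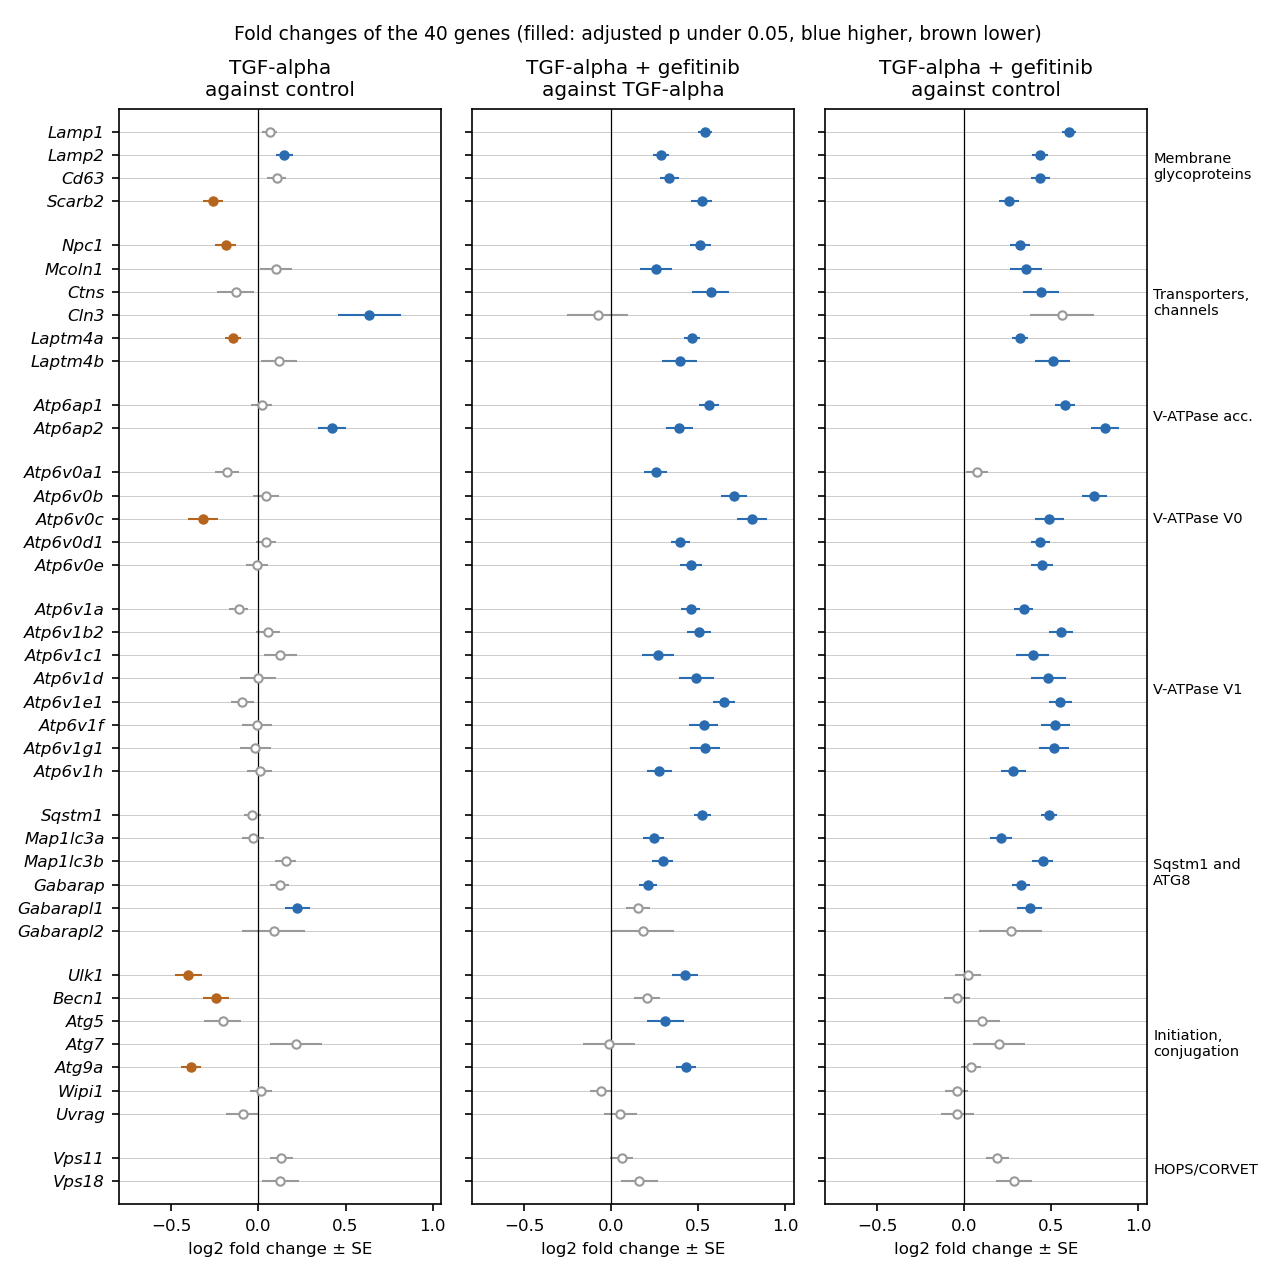
Log2 fold change ± SE (x axis) of each of the 40 genes (y axis, grouped by role) in the 3 comparisons, with filled points for an adjusted p under 0.05. The first panel holds 4 filled points above 0 and 7 below, and the panels for the combined group hold 31 and 28, all above 0.

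The second comparison, the combined group against TGF-alpha alone, concerned what gefitinib did in the presence of the ligand. Here 31 of the 40 rose and 0 fell by edgeR's adjusted p, where 17% of all tested genes rose and 16.9% fell (34% in either direction). Both combined libraries stood above both TGF-alpha libraries for 34 of the 40, a pattern found in 33.5% of all tested genes. The median log2 fold change was 0.39 (1.31-fold), beside 0.01 for all tested genes. DESeq2 called 26 risers and 0 falls, and 1646 risers and 1826 falls among all genes. None of the 40 fell at an unadjusted p under 0.05 in edgeR, where 33 rose, beside 3353 risers and 3258 falls among the 15362 tested genes. The rises were modest: none of the 40 changed as much as 2-fold. Against a 1.2-fold change 19 were called, and 1202 risers and 1467 falls among all tested genes.

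The third comparison set the combined group against control. Again 28 of the 40 rose and 0 fell, although only 5.27% of all tested genes rose and 4.26% fell (9.52% in either direction). The median log2 fold change was 0.38 (1.31-fold) beside 0.00 for all tested genes. Both combined libraries stood above both control libraries for 32 of the 40, as they did for 26.5% of all tested genes, and below them for Wipi1, named here for that and not by the rule for named genes. DESeq2 called 25 risers and 0 falls, and 475 risers and 437 falls among all genes. The unadjusted p of edgeR was under 0.05 for 31 risers and 0 falls, beside 1918 and 1695 among all tested genes. Tested against a 1.2-fold change, 190 of all tested genes rose and 87 fell. Of the 40, 12 were called against a 1.2-fold change. With library totals alone 77.5% of all called genes were risers, in place of 55.3%. The 3 comparisons share libraries pairwise, so their values are given side by side and not as independent evidence.

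**Figure D3:**
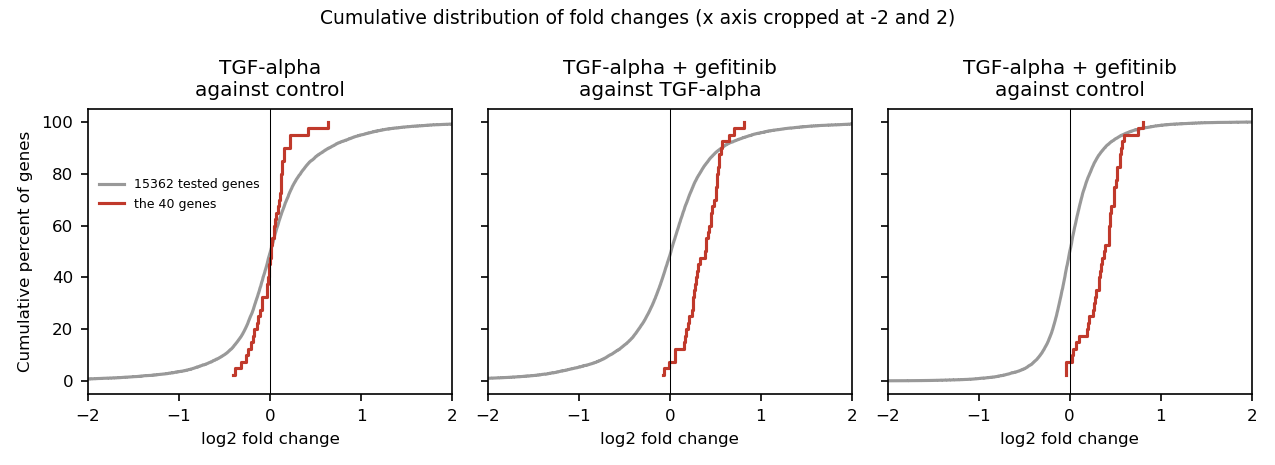
Cumulative percent of genes (y axis) by log2 fold change (x axis) for the 40 genes and for all 15362 tested genes, in 3 panels for the 3 comparisons. The curve of the 40 lies to the right of the other over most of its range in both panels with the combined group (medians 0.39 and 0.38) and crosses near 0 for TGF-alpha against control (median 0.01).

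The glycoproteins of the lysosome membrane rose in 4 of 4 cases in the combined group, against TGF-alpha and against control alike. Of all tested genes 17% and 5.27% rose in these comparisons. Lamp1, the main glycoprotein that lines the inside of the membrane (chr8:13159161-13175338), stood at 471 and 469.6 CPM in control, 489 and 494 with TGF-alpha, and 706 and 722 in the combined group. The combined libraries were the highest and the other 4 lay close together. Its rise over TGF-alpha was 1.45-fold (log2 0.54 ± 0.04 SE, edgeR adjusted p = 1.47e-07) and over control 1.52-fold (log2 0.60 ± 0.04, adjusted p = 6.88e-07). TGF-alpha alone left a log2 difference of 0.06 ± 0.04 (adjusted p = 0.297).

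Lamp2, its partner, which also serves chaperone-mediated autophagy, stood at 245 and 244 CPM in control, 265 and 276 with TGF-alpha, and 332 and 327 in the combined group. Its groups did not overlap, but both TGF-alpha libraries stood above both control libraries for 32.8% of all tested genes as well. It rose 1.11-fold with TGF-alpha (log2 0.15 ± 0.05, edgeR adjusted p = 0.0263) and a further 1.22-fold in the combined group (log2 0.29 ± 0.05, adjusted p = 0.000233). The call with TGF-alpha was lost without Control 1, Control 2 or TGF-alpha 2 (adjusted p = 0.109, 0.127 and 0.193).

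Scarb2, the receptor that brings the enzyme glucocerebrosidase to the lysosome, stood at 83.9 and 83.1 CPM in control, 70.0 and 69.3 with TGF-alpha, and 101 and 98.9 in the combined group. TGF-alpha libraries were the lowest and combined libraries the highest. It fell with TGF-alpha (log2 -0.26 ± 0.06, edgeR adjusted p = 0.00328) and rose 1.43-fold from there in the combined group (log2 0.52 ± 0.06, adjusted p = 6.52e-06). The rise over control (log2 0.26 ± 0.06, adjusted p = 0.0108) was not called without Control 1 (0.0724), Control 2 (0.0974) or combined library 1 (0.0541).

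Cd63, a tetraspanin of late endosomes and lysosomes, stood at 144 and 136 CPM in control, 148 and 152 with TGF-alpha, and 195 and 183 in the combined group. The combined libraries were the highest, at a log2 difference of 0.33 ± 0.05 over TGF-alpha (edgeR adjusted p = 0.000253) and 0.44 ± 0.05 over control (adjusted p = 0.000145). Its near-identical copy Cd63-ps (98.5% identical over 812 bases) held 14935 counts in all and Cd63 held 13274, so reads may have been split between them. Cd63-ps was 0.26 ± 0.06 (log2) higher than with TGF-alpha (adjusted p = 0.00294). Summed with its copy, Cd63 was also called higher with TGF-alpha than in control (log2 0.14, adjusted p = 0.0281), where by itself it was not (adjusted p = 0.182).

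Among transporters, channels and small membrane proteins 5 of 6 rose in the combined group against TGF-alpha, and 5 of 6 against control, by edgeR. DESeq2 called 3 and 4 of them. Of all tested genes 17% and 5.27% rose there by edgeR. Laptm4a, a small protein that spans the membrane of late endosomes and lysosomes, stood at 446 and 459 CPM in control, 399.7 and 419 with TGF-alpha, and 550.5 and 579 in the combined group. The TGF-alpha libraries were the lowest and the combined libraries the highest. It rose 1.38-fold over TGF-alpha (log2 0.46 ± 0.05, edgeR adjusted p = 2.2e-06) and 1.25-fold over control (log2 0.32 ± 0.05, adjusted p = 0.000501). Its fall with TGF-alpha (log2 -0.15 ± 0.05, adjusted p = 0.0302) was not called without Control 1 (0.0687), Control 2 (0.172) or TGF-alpha 1 (0.208).

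Npc1, which moves cholesterol out of the lysosome, stood at 75.0 and 78.1 CPM in control, 67.5 and 66.9 with TGF-alpha, and 95.6 and 95.9 in the combined group, again with no overlap between groups. It rose 1.43-fold over TGF-alpha (log2 0.51 ± 0.06, edgeR adjusted p = 9.87e-06) and 1.25-fold over control (log2 0.32 ± 0.06, adjusted p = 0.00300). The rise over control had an adjusted p of 0.0504 without Control 1. Its fall with TGF-alpha (log2 -0.19 ± 0.06, adjusted p = 0.0283) was lost without Control 1 (0.0582), Control 2 (0.175), TGF-alpha 1 (0.103) or TGF-alpha 2 (0.124).

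Ctns, the cystine exporter, stood at 23.9 and 27.4 CPM in control, 21.9 and 25.0 with TGF-alpha, and 33.8 and 36.0 in the combined group. Control and TGF-alpha libraries overlapped, and the combined group was 1.49-fold over TGF-alpha (log2 0.57 ± 0.10, edgeR adjusted p = 0.000643). Against control the log2 difference was 0.44 ± 0.10 (adjusted p = 0.0148), and it was not called without Control 1 (0.151) or combined library 2 (0.0855). Laptm4b, the close relative of Laptm4a, stood at 19.0 and 20.4 CPM in control, 21.8 and 21.0 with TGF-alpha, and 27.5 and 28.7 in the combined group. DESeq2 and glmTreat did not call it higher in the combined group than with TGF-alpha. It rose by a log2 difference of 0.39 ± 0.10 over TGF-alpha (edgeR adjusted p = 0.00681) and 0.51 ± 0.10 over control (adjusted p = 0.00474), the latter not called without Control 1 (0.0577).

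Mcoln1 and Cln3, whose promoter stretches are shown above, were described after their values were seen. Mcoln1, the calcium channel of the lysosome membrane, stood at 30.7 and 32.7 CPM in control, 35.9 and 32.1 with TGF-alpha, and 42.4 and 38.8 in the combined group. The combined group was 0.26 ± 0.09 (log2) over TGF-alpha, a borderline call (edgeR adjusted p = 0.0439) that was lost without Control 1 (0.0522), Control 2 (0.0538), TGF-alpha 2 (0.263) or combined library 1 (0.290). It held in 7 of the 15 alternative settings, and was also lost by DESeq2, by glmTreat, with the replicate block and with the 4 compared libraries alone. Its rise over control (log2 0.36 ± 0.09, adjusted p = 0.0248) was lost without Control 1 (0.169), Control 2 (0.0840) or combined library 1 (0.158), and by DESeq2 and glmTreat.

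Cln3, a lysosome membrane protein lost in a childhood neurodegenerative disease, had few counts, at 7.49 and 6.30 CPM in control, 9.74 and 11.6 with TGF-alpha, and 11.4 and 8.80 in the combined group. Control libraries were the lowest, and the TGF-alpha and combined libraries overlapped. It was the 1 membrane gene with no rise over TGF-alpha (log2 -0.08 ± 0.18, edgeR adjusted p = 0.779), and its rise with TGF-alpha over control (log2 0.64 ± 0.18, adjusted p = 0.0159) was lost without Control 2 (0.140) or TGF-alpha 2 (0.143). The combined group was 0.56 ± 0.18 (log2) over control (adjusted p = 0.0731, and 0.0465 without combined library 2). Cln3 shares 442 bases of exon with Apobr on the opposite strand, which held 1232 counts where Cln3 held 766. Whether the counting used strand is not given, so reads of these 2 genes may not be told apart. The same limit holds for Becn1 and Sqstm1, which share 29.6% and 20.5% of their exonic length with Cntd1 and Mrnip on the opposite strand. Cntd1 held 80 counts where Becn1 held 7232, and Mrnip had no entry by that symbol.

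Of the V-ATPase subunit genes 15 of 15 rose by edgeR in the combined group against TGF-alpha, with a median log2 fold change of 0.49. Against control 14 of 15 rose, also with a median of 0.49. DESeq2 called 13 risers in each of these comparisons. Of all tested genes 17% and 5.27% rose there by edgeR. With TGF-alpha alone 1 V-ATPase gene rose and 1 fell, with a median of 0.00, where 15.9% of all tested genes rose and 14% fell. Its accessory subunits help to assemble the pump and guide it to the right membrane. Atp6ap1 stood at 189.7 and 185 CPM in control, 180.0 and 199 with TGF-alpha, and 290.2 and 269 in the combined group. Control and TGF-alpha libraries overlapped, and the rise was 1.47-fold over TGF-alpha (log2 0.56 ± 0.06, edgeR adjusted p = 3.13e-06) and 1.49-fold over control (log2 0.58 ± 0.06, adjusted p = 2.03e-05). Atp6ap2, also known as the prorenin receptor (chrX:12587801-12617049), stood at 37.7 and 33.0 CPM in control, 47.5 and 47.0 with TGF-alpha, and 60.3 and 63.6 in the combined group. The 3 groups formed separate steps: 1.34-fold up with TGF-alpha (log2 0.42 ± 0.08, adjusted p = 0.00110) and 1.31-fold from there (log2 0.39 ± 0.08, adjusted p = 0.00132). Its 1.75-fold rise over control (log2 0.81 ± 0.08, adjusted p = 1.61e-05) had the largest log2 value of the 40 in that comparison.

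In the V0 sector, the membrane part through which protons pass, 5 of 5 genes rose over TGF-alpha and 4 of 5 over control. Among all tested genes 17% and 5.27% rose. Atp6v0b, part of the rotating ring (chr4:117884326-117887333), stood at 46.4 and 48.8 CPM in control, 47.7 and 50.6 with TGF-alpha, and 84.0 and 75.9 in the combined group. Its control and TGF-alpha libraries overlapped and the combined libraries stood apart, 1.63-fold over TGF-alpha (log2 0.70 ± 0.07, edgeR adjusted p = 3.08e-06) and 1.68-fold over control (log2 0.75 ± 0.07, adjusted p = 1.58e-05). Atp6v0d1, the stalk subunit on the ring, went from 91.0 and 93.0 CPM in control and 92.6 and 96.8 with TGF-alpha to 124 and 125 in the combined group. Atp6v0e, a small subunit beside the ring, went from 72.9 and 76.9 CPM in control and 72.3 and 76.6 with TGF-alpha to 103 and 101. Both rose over TGF-alpha (log2 0.40 ± 0.06 for Atp6v0d1 and 0.46 ± 0.06 for Atp6v0e, edgeR adjusted p = 6.45e-05 and 3.85e-05) and over control (0.44 ± 0.06 and 0.45 ± 0.06, adjusted p = 0.00017 and 0.000293).

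Atp6v0c, the main ring subunit (chr17:24163866-24169702), stood at 48.5 and 48.0 CPM in control, 38.9 and 38.3 with TGF-alpha, and 61.8 and 73.8 in the combined group. The TGF-alpha libraries were the lowest. The step from there to the combined group was 1.75-fold (log2 0.81 ± 0.09, edgeR adjusted p = 3.3e-06), and the combined group was 1.40-fold over control (log2 0.49 ± 0.08, adjusted p = 0.00169). Its copy Atp6v0c-ps2, 99.8% identical over 465 bases, held more counts than the gene itself, 7329 against 4265. Atp6v0c-ps2 stood at 76.1 and 73.9 CPM in control, 78.2 and 89.0 with TGF-alpha, and 113 and 99.3 in the combined group. With the copies summed the combined group was still higher than TGF-alpha (log2 0.52, adjusted p = 4.36e-06), but the fall with TGF-alpha (log2 -0.32 ± 0.09, adjusted p = 0.0115) shrank to -0.02 (adjusted p = 0.873). That fall was also lost without Control 1, Control 2, TGF-alpha 1 or TGF-alpha 2 (adjusted p = 0.0643, 0.0583, 0.0564 and 0.0719).

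The exception in the V0 sector was Atp6v0a1, an isoform of the large subunit that directs the pump, mentioned for that after its values were seen. It stood at 86.5 and 79.2 CPM in control, 70.5 and 75.4 with TGF-alpha, and 88.7 and 85.4 in the combined group. It rose over TGF-alpha (log2 0.25 ± 0.07, edgeR adjusted p = 0.00833; 0.0990 without TGF-alpha 1 and 0.0657 without combined library 1), and its combined libraries overlapped control (log2 0.07 ± 0.07, adjusted p = 0.561). Its log2 difference with TGF-alpha was -0.18 ± 0.07 (adjusted p = 0.0544), called without Control 2 (0.0476) or combined library 2 (0.0472).

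In the V1 sector, which splits ATP, 8 of 8 genes rose over TGF-alpha and 8 of 8 over control by edgeR. DESeq2 called 6 and 7 of them, and of all tested genes 17% and 5.27% rose by edgeR. With TGF-alpha alone 0 of 8 were called by edgeR or by DESeq2, and 0 had an unadjusted p under 0.05. Among all tested genes 29.9% were called there by edgeR. Atp6v1e1, part of the stalks that hold the pump still, stood at 72.8 and 68.6 CPM in control, 63.7 and 68.7 with TGF-alpha, and 104 and 103 in the combined group. Its control and TGF-alpha libraries overlapped, and the rise was 1.57-fold over TGF-alpha (log2 0.65 ± 0.06, edgeR adjusted p = 1.76e-06) and 1.47-fold over control (log2 0.55 ± 0.06, adjusted p = 6.2e-05).

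Atp6v1a and Atp6v1b2 encode the catalytic and the regulatory subunit of the ATP-splitting ring. Atp6v1a stood at 158 and 148 CPM in control, 139 and 143 with TGF-alpha, and 189 and 198 in the combined group, 1.37-fold over TGF-alpha (log2 0.46 ± 0.05, edgeR adjusted p = 1.23e-05). Atp6v1b2 stood at 56.9 and 62.5 CPM in control, 62.3 and 61.8 with TGF-alpha, and 85.3 and 90.8 in the combined group, 1.42-fold over TGF-alpha (log2 0.50 ± 0.07, adjusted p = 3.91e-05). For both genes the combined libraries were the highest of the 6. Atp6v1f, a subunit of the central shaft, stood at 62.0 and 60.1 CPM in control, 54.6 and 66.7 with TGF-alpha, and 84.8 and 90.6 in the combined group, and rose although its TGF-alpha libraries were spread (log2 0.53 ± 0.08, adjusted p = 0.000158). The other V1 genes, Atp6v1c1, Atp6v1d, Atp6v1g1 and Atp6v1h, rose by log2 0.27, 0.49, 0.54 and 0.28 over TGF-alpha, and those of Atp6v1c1 and Atp6v1h were lost without TGF-alpha 2 (adjusted p = 0.174 and 0.0561). Atp6v1c1's was also lost without TGF-alpha 1 (0.0934), combined library 1 (0.151) or combined library 2 (0.0879), and Atp6v1h's without combined library 2 (0.0707). Atp6v1g1 may share reads with its copy Gm13453 (99.4% identical over 357 bases, 3881 counts against 3592), which rose over TGF-alpha by log2 0.52 ± 0.08 (adjusted p = 0.000149). Against control, calls were lost for Atp6v1c1 without Control 1 (0.170), combined library 1 (0.0671) or combined library 2 (0.0562), for Atp6v1d without Control 1 (0.0548) or Control 2 (0.0706), and for Atp6v1h without Control 1 (0.130), Control 2 (0.109) or combined library 2 (0.160).

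**Figure D4:**
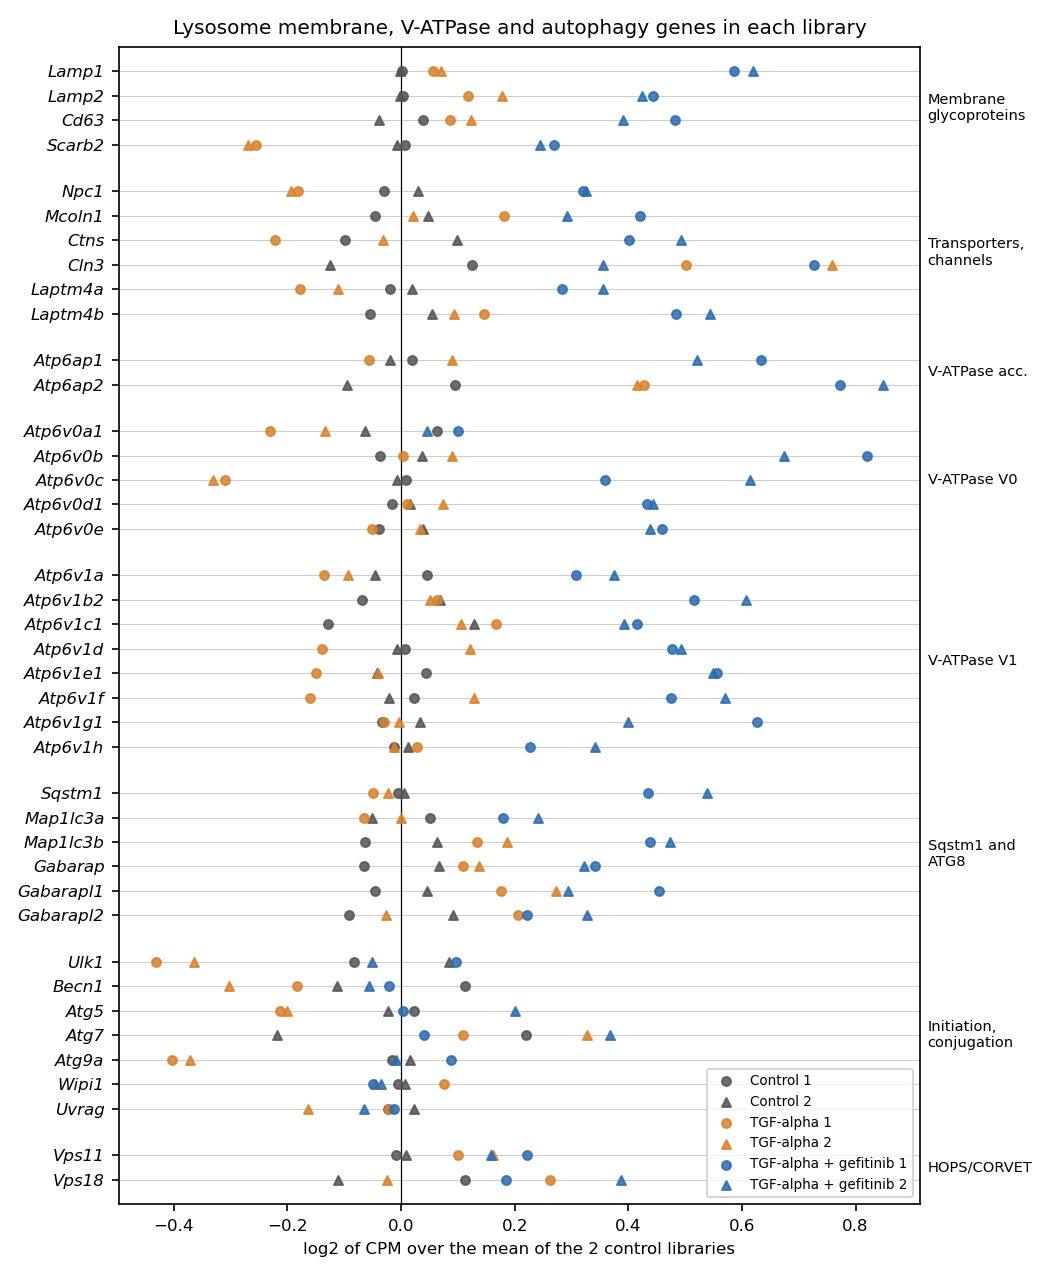
Log2 of the CPM of each of the 40 genes (y axis, grouped by role) in each of the 6 libraries over its mean in the 2 control libraries (x axis). The combined libraries lie to the right of 0 for the V-ATPase and most membrane genes, with medians over the 40 genes of 0.41 and 0.38, while the medians of the TGF-alpha libraries are -0.01 and 0.01.

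The autophagy genes were divided. Of 15, 7 rose over TGF-alpha and 5 over control by edgeR (6 and 4 by DESeq2). Of all tested genes 17% and 5.27% rose there by edgeR. The median log2 fold change was 0.20 in both comparisons. The cargo receptor p62 and the ATG8 proteins, which coat the growing membrane, accounted for 4 of the 7 and for all 5. Sqstm1, which encodes p62 (chr11:50199366-50210827), stood at 315 and 317 CPM in control, 305 and 311 with TGF-alpha, and 427 and 459 in the combined group. The other 4 libraries lay close together, and the rise was 1.44-fold over TGF-alpha (log2 0.52 ± 0.05, edgeR adjusted p = 8.64e-07) and 1.40-fold over control (log2 0.49 ± 0.05, adjusted p = 1.61e-05).

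Of the 5 genes of ATG8 proteins, 3 rose over TGF-alpha and 4 over control, beside 17% and 5.27% of all tested genes. Gabarap stood at 240.2 and 263 CPM in control, 271 and 277 with TGF-alpha, and 319 and 314 in the combined group, and Map1lc3b, which encodes LC3B, at 87.7 and 95.8, 101 and 104, and 124 and 127. Neither gene's groups overlapped, in the order control, TGF-alpha, combined. Such a gap between control and TGF-alpha was common, as 32.8% of all tested genes had both TGF-alpha libraries above both control libraries. Gabarap rose by a log2 difference of 0.21 ± 0.05 over TGF-alpha (edgeR adjusted p = 0.00610; 0.0551 without TGF-alpha 1) and 0.33 ± 0.05 over control (adjusted p = 0.000919), and Map1lc3b by 0.29 ± 0.06 and 0.45 ± 0.06 (adjusted p = 0.00149 and 0.000242). Their differences between TGF-alpha and control were not called (log2 0.12 ± 0.05, adjusted p = 0.0984, for Gabarap, called without Control 2 at 0.0447, and 0.16 ± 0.06, adjusted p = 0.0676, for Map1lc3b).

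Map1lc3a, which encodes LC3A, stood at 85.5 and 79.7 CPM in control, 79.0 and 82.5 with TGF-alpha, and 93.5 and 97.6 in the combined group. It rose over TGF-alpha (log2 0.24 ± 0.06, edgeR adjusted p = 0.00767; 0.0805 without TGF-alpha 1), and its rise over control (log2 0.21 ± 0.06, adjusted p = 0.0481) was lost when any 1 of the 6 libraries was left out (adjusted p from 0.0714 to 0.321). Gabarapl1 and Gabarapl2, also ATG8 proteins, fell outside the rule for named genes. Gabarapl1 rose over control with TGF-alpha (log2 0.22 ± 0.07, adjusted p = 0.0272, lost without Control 1 at 0.198, Control 2 at 0.0571 or TGF-alpha 2 at 0.211) and in the combined group (log2 0.38 ± 0.07, adjusted p = 0.00345, lost without Control 1 at 0.0608). Its log2 difference between combined and TGF-alpha was 0.15 ± 0.07 (adjusted p = 0.110, and 0.0344 without combined library 2). Gabarapl2 by itself was called in no comparison, at 6.40 to 8.56 CPM, and its copy Gm3724 held more counts (1058 against 620). Gm3724 was called higher in the combined group than with TGF-alpha (log2 0.39 ± 0.13, adjusted p = 0.0326), as was Gabarapl2 when summed with its copies (0.0402).

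Genes that start the autophagic membrane, attach ATG8 proteins to lipid and supply membrane did not share 1 pattern. Of these 7, 3 fell with TGF-alpha by edgeR (2 by DESeq2), where 14% of all tested genes fell. In the combined group 3 rose against TGF-alpha (2 by DESeq2), where 17% of all tested genes rose. Against control 0 of the 7 were called in the combined group by edgeR or by DESeq2, with 0 at an unadjusted p under 0.05. Among all tested genes 9.52% were called there by edgeR. Atg9a, the membrane-spanning scramblase that seeds the membrane (chr1:75180860-75192196), stood at 109 and 111 CPM in control, 82.9 and 84.9 with TGF-alpha, and 117 and 109 in the combined group. Only the TGF-alpha libraries stood apart. Atg9a shares 41.8% of its exonic length with Gm29253 on the same strand, which had no entry by that symbol, so reads of both may be counted together. It fell with TGF-alpha (log2 -0.39 ± 0.06, edgeR adjusted p = 0.000137), rose from there (log2 0.43 ± 0.06, adjusted p = 4.92e-05) and differed from control by log2 0.04 ± 0.06 (adjusted p = 0.740).

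Ulk1, the kinase that starts autophagy (chr5:110784488-110810097), stood at 72.4 and 81.3 CPM in control, 56.8 and 59.5 with TGF-alpha, and 82.0 and 74.0 in the combined group. Its TGF-alpha libraries were the lowest and the combined libraries overlapped control. It fell with TGF-alpha (log2 -0.40 ± 0.08, edgeR adjusted p = 0.000866), rose from there (log2 0.42 ± 0.08, adjusted p = 0.000521) and differed from control by 0.02 ± 0.07 (adjusted p = 0.906). Becn1, a subunit of the lipid kinase complex that acts next, stood at 100.1 and 85.6 CPM in control, 81.5 and 75.0 with TGF-alpha, and 91.2 and 89.0 in the combined group. It was not called lower with TGF-alpha than in control by DESeq2, by glmTreat or with library totals alone. Its fall with TGF-alpha (log2 -0.24 ± 0.08, adjusted p = 0.0241) was lost without Control 1 (0.294) or TGF-alpha 2 (0.200). Its combined group was 0.20 ± 0.08 (log2) above TGF-alpha (adjusted p = 0.0511, called without Control 1 at 0.0330 or Control 2 at 0.0334).

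Atg5, part of the complex that attaches ATG8 proteins to lipid, stood at 23.3 and 22.5 CPM in control, 19.8 and 19.9 with TGF-alpha, and 23.0 and 26.3 in the combined group. DESeq2, glmTreat and the 4 compared libraries alone did not call it higher in the combined group than with TGF-alpha. Its rise over TGF-alpha (log2 0.31 ± 0.11, edgeR adjusted p = 0.0364) was lost without Control 2 (0.0505), TGF-alpha 1 (0.131), TGF-alpha 2 (0.113) or combined library 2 (0.225). Atg7, Wipi1 and Uvrag were called in no comparison, with log2 differences between -0.09 and 0.21. The HOPS and CORVET complexes tether vesicles at lysosomes and endosomes. Of their shared subunits, Vps11 stood at 56.6 and 57.2 CPM in control, 61.0 and 63.7 with TGF-alpha, and 66.4 and 63.5 in the combined group. In the main edgeR test and by DESeq2 neither Vps11 nor Vps18 was called in any comparison, although both had an unadjusted p under 0.05 in the combined group against control (log2 0.19 ± 0.07, adjusted p = 0.0890, for Vps11 and 0.29 ± 0.11, adjusted p = 0.112, for Vps18). With library totals alone Vps11 was called higher with TGF-alpha (0.0384) and in the combined group (0.0239) than in control, and Vps18 was called in the combined group against control with library totals alone or with no filter on low counts.

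Levels between genes were compared per kilobase of exon. In control Laptm4a was the highest, at 255 ± 4.86 CPM per kilobase, followed by Lamp1 at 211 ± 0.463, Gabarap at 186 ± 12.1, Sqstm1 at 112 ± 0.505, Cd63 at 96.5 ± 3.64 and Atp6ap1 at 83.0 ± 1.61. None of these neighbours overlapped in the control libraries. The lowest were Cln3 at 2.06 ± 0.251, Gabarapl2 at 4.07 ± 0.362 and Atg7 at 4.88 ± 1.04 CPM per kilobase, of which Gabarapl2 and Atg7 overlapped. In the combined group Lamp1 (320.4 ± 5.27 CPM per kilobase) and Laptm4a (319 ± 11.4) overlapped and shared the top. Cd63, Gabarapl2 and other genes with near-identical copies may be underestimated here, since reads may have been split.

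**Figure D5:**
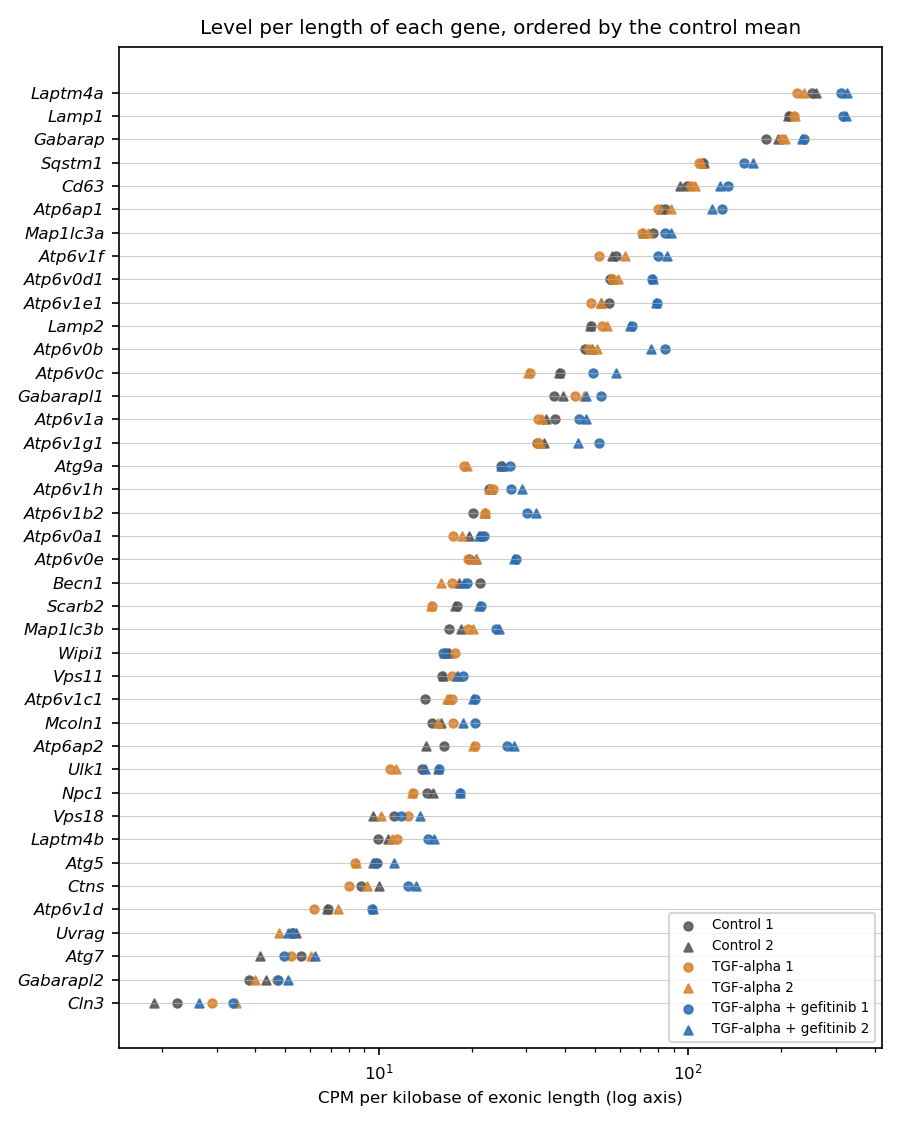
CPM per kilobase of exonic length (x axis, log scale) of each of the 40 genes (y axis, ordered by the control mean) in each of the 6 libraries. Laptm4a, Lamp1 and Gabarap lead in control and Cln3 is last, and the spread between genes is far wider than that between groups.

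Genes with CACGTG in the promoter and those without were compared side by side. Of the 9 with the motif 7 rose over TGF-alpha, with a median log2 fold change of 0.40, and 6 over control, with a median of 0.44. Of the 22 with a promoter entry and no CACGTG, 17 rose over TGF-alpha, with a median of 0.41, and 15 over control, with a median of 0.40. Among the 9, Lamp1 and Atp6v0b rose by log2 0.54 and 0.70 over TGF-alpha, while Cln3 and Atg7 stood at -0.08 and -0.01. Among all tested genes 17% rose over TGF-alpha and 5.27% over control. The difference between the motif groups was not tested.

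Other genes of the same pathways, 98 on 6 lists, of which 88 were tested, moved in both directions. Against TGF-alpha 34 rose and 7 fell in the combined group by edgeR (20 and 6 by DESeq2), with a median log2 fold change of 0.16. Of all tested genes 17% rose and 16.9% fell there. Against control 20 rose and 0 fell by edgeR (29 and 4 at an unadjusted p under 0.05, 11 and 0 by DESeq2), with a median of 0.10. Of all tested genes 5.27% rose and 4.26% fell in that comparison. With TGF-alpha alone 12 rose and 16 fell (5 and 11 by DESeq2), where 15.9% of all tested genes rose and 14% fell. Among the 25 other lysosome membrane genes tested, 13 rose and 2 fell in the combined group against TGF-alpha (8 and 1 by DESeq2). Clcn7, the chloride and proton exchanger that works beside the pump, stood at 53.1 and 55.5 CPM in control, 39.2 and 39.3 with TGF-alpha, and 78.2 and 82.8 in the combined group. Its groups did not overlap, and its 2.05-fold rise over TGF-alpha (log2 1.04 ± 0.07, edgeR adjusted p = 2.64e-08) was larger than that of any of the 40 genes. Spns1, a lysophospholipid transporter of the lysosome, fell with TGF-alpha (log2 -0.63 ± 0.08, adjusted p = 3.14e-05) and rose from there (log2 0.86 ± 0.08, adjusted p = 1.06e-06). Abcd4, of the same list, ran the other way. It rose with TGF-alpha (log2 0.57 ± 0.10, edgeR adjusted p = 0.000426) and fell from there (log2 -0.59 ± 0.10, adjusted p = 0.000309).

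Against TGF-alpha, where 17% of all tested genes rose and 16.9% fell, 2 of 5 other V-ATPase subunit genes tested rose and 1 fell. These were isoforms of subunits already named: Atp6v0a2 and Atp6v0e2 rose (log2 0.75 ± 0.06 and 1.15 ± 0.23, edgeR adjusted p = 4.18e-07 and 0.00132) and Atp6v0a4 fell (log2 -0.71 ± 0.10, adjusted p = 7.24e-05). The Ragulator and Rag GTPases, which anchor the growth regulator mTORC1 to the lysosome, rose in 5 of 9 cases against TGF-alpha by edgeR (3 by DESeq2). Against control 6 of 9 rose (2 by DESeq2), where 5.27% of all tested genes rose. Falls numbered 0 in both by edgeR or DESeq2, and 0 at an unadjusted p under 0.05. Rragd was low and rose 3.59-fold over control, from 0.702 and 0.892 CPM to 3.08 and 2.72 (log2 1.84 ± 0.36, adjusted p = 0.00466), with 1.95 and 1.82 CPM under TGF-alpha (log2 1.22 ± 0.38 over control, adjusted p = 0.0253).

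Of 24 other core autophagy genes tested only 2 rose and 2 fell against TGF-alpha (0 and 2 by DESeq2), where 17% of all tested genes rose and 16.9% fell. Vmp1 and Rb1cc1, which act at the start of the autophagic membrane, ran opposite to Atg9a and Ulk1. Vmp1 stood at 69.5 and 78.7 CPM in control, 127 and 121 with TGF-alpha, and 85.1 and 80.4 in the combined group, and Rb1cc1 at 34.8 and 37.8, 53.3 and 50.2, and 31.4 and 32.6. Both rose with TGF-alpha (log2 0.74 ± 0.07 and 0.51 ± 0.08, edgeR adjusted p = 8.26e-07 and 0.00021) and fell in the combined group against TGF-alpha (log2 -0.59 ± 0.07 and -0.69 ± 0.08, adjusted p = 8.44e-06 and 1.21e-05). Wipi2, of the same list, ran the same way as Atg9a and Ulk1. It fell with TGF-alpha (log2 -0.28 ± 0.06, edgeR adjusted p = 0.00291) and rose from there (log2 0.21 ± 0.06, adjusted p = 0.0170). Of 13 other autophagy receptors 6 rose and 2 fell against TGF-alpha by edgeR (3 and 2 by DESeq2). Those that fell were the mitophagy receptors Bnip3 and Bnip3l (log2 -0.53 ± 0.06 and -0.42 ± 0.07, adjusted p = 1.3e-05 and 0.000409). Ccpg1 was among those that rose (log2 0.31 ± 0.06, edgeR adjusted p = 0.00149). It had fallen with TGF-alpha against control (log2 -0.41 ± 0.06, adjusted p = 0.000154). Of 12 tested genes for fusion with the lysosome 6 rose by edgeR (4 by DESeq2), among them the SNARE proteins Ykt6 and Vamp8 (log2 0.52 ± 0.06 and 0.58 ± 0.08, adjusted p = 1.52e-05 and 7e-05). Snap29 was not called there (log2 -0.19 ± 0.14, edgeR adjusted p = 0.314). It rose with TGF-alpha against control (log2 0.43 ± 0.14, adjusted p = 0.0292). In this list 0 fell by edgeR or DESeq2, with 0 at an unadjusted p under 0.05.

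Markers of other cell types moved between the groups as well. The macrophage markers summed to 5.78 and 6.56 CPM in control, 13.1 and 16.9 with TGF-alpha, and 7.67 and 10.1 in the combined group, and 7 of the 13 in the table were at 0 in all libraries, among them Ptprc, Tyrobp, C1qa, C1qb and C1qc. The osteoclast markers summed to 122 and 124, 134 and 141, and 151 and 150.2 CPM, with Calcr and Dcstamp at 0 in all libraries. Ctsk was the largest contributor to the osteoclast sum, at 63.6 and 65.0 CPM in control, 61.4 and 69.6 with TGF-alpha, and 98.0 and 98.7 in the combined group. Erythroid markers summed to at most 0.721 CPM. The markers within these 2 lists did not move together. Of the 4 macrophage markers tested, 2 rose and 1 fell with TGF-alpha against control. Cd68 stood at 1.17 and 1.91 CPM in control, 8.22 and 9.74 with TGF-alpha, and 2.19 and 2.96 in the combined group. Lyz2 stood at 2.65 and 1.97, 0.288 and 1.24, and 2.54 and 2.96 CPM. Of the 4 osteoclast markers tested, 1 rose and 2 fell in the combined group against TGF-alpha: Nfatc1 stood at 46.2 and 46.2 CPM in control, 53.4 and 54.1 with TGF-alpha, and 39.7 and 38.1 in the combined group, and Itgb3 was the other that fell. Osteoblast markers summed to 385 and 385 CPM in control, 97.0 and 101 with TGF-alpha, and 246 and 239 in the combined group, and 5 of 6 tested rose there against TGF-alpha while 1 fell. Markers of fibroblasts and perichondrium summed to 27233 to 29352, 17545 to 17697 and 21047 to 21284 CPM, and those of endothelium to 20.5 to 22.3, 43.7 to 46.5 and 19.1 to 21.8 CPM, nearly all of it Erg, with Cdh5 and Emcn at 0 in all libraries. The part of these marker sums in the results was not tested.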

How the data were processed

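The authors deposited 1 table of whole-number read counts per gene, not normalized, with 1 column per library and entries by symbol. RNA was sequenced on an Ion Proton, per the labels' protocols, and GRCm38 is the genome build named, per the submitters' processing notes. Which aligner, counter and annotation were used, and whether strand was used, is not given in the sources used here. Conflicts in the labels (PBS or DMSO, P2 or postnatal day 1) were not resolved.

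The table had 44788 entries, of which 19649 had no count. In R 4.3.3 with edgeR 4.0.16, filterByExpr (minimum count 10) kept 15362 genes, TMM scaled the libraries, and a quasi-likelihood model (glmQLFit, glmQLFTest) took in all 6 libraries, with the treatment group as its term. The 3 pairs of groups were tested two-sided with Benjamini-Hochberg adjustment over all tested genes, and calls rest on an adjusted p under 0.05. SE is the absolute log2 fold change over the square root of F. The common coefficient of variation between libraries was 6.08%, and replicates differed by more than counting noise (chi-square per degree of freedom from 3.03 to 3.83).

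Gene positions and exonic lengths came from GENCODE M21, promoters from RefSeq (GRCm38.p6), and near-identical copies (at least 95% over 200 bases) from blast 2.17.0. The genes named by rule were, in each of 8 role groups, up to 4 called in a comparison of TGF-alpha with control or the combined group with TGF-alpha, by smallest adjusted p, plus the gene with the highest mean CPM, and up to 3 called genes of each pathway list, by smallest adjusted p for TGF-alpha against control. The 40 genes and all lists were chosen with earlier results of these data known. Alternatives used DESeq2 1.42.0, glmTreat against 1.2-fold, other scaling, other filters, the 4 compared libraries alone, each replicate left out and, added after seeing the data, copies summed with their gene.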

Additional observations from a re-analysis of the deposited data

How the results depend on the processing

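Each comparison was refitted in 15 alternative settings, and no called result turned direction. All 11, 31 and 28 calls among the 40 genes (TGF-alpha against control, combined against TGF-alpha, combined against control) kept their sign in all 15. Called in every setting were 1, 19 and 12 of them, and in all but the test against a 1.2-fold change 4, 23 and 18. For TGF-alpha against control, risers numbered 4 in the main analysis, 9 with library totals alone, 1 by DESeq2 and 0 by glmTreat, falls numbered 7, 4 with library totals alone and 1 by glmTreat, and called genes among all those tested 4600, and 2319 by glmTreat. For the combined group against TGF-alpha, risers numbered 31 and 19 by glmTreat, and all called genes 5217, 3472 by DESeq2 and 2669 by glmTreat. Against control, risers numbered 28 and 12 by glmTreat, and all called genes 1463, 912 by DESeq2 and 277 by glmTreat.

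Leaving out each replicate gave, for TGF-alpha against control, 1 to 4 risers, 3 to 8 falls and 3297 to 4767 called genes in all. For the combined group it gave 26 to 31 risers, 0 falls and 3703 to 4950 called genes against TGF-alpha, and 18 to 27 risers (18 without Control 1), 0 falls and 649 to 1291 called genes against control (666 without Control 1, 649 without Control 2 and 893 without combined library 2). In these fits a group of 1 library is assumed to vary like the others. With the replicate block, risers and falls numbered 4 and 7, 30 and 0, and 27 and 0, with 4450, 5042 and 1335 called genes. Deviations of same-numbered libraries correlated at 0.00340, 0.0108 and -0.0228 across 15362 genes, which are not independent. This cannot decide whether the numbers pair the samples, since technical noise between libraries could give such values with or without pairing. With 2 libraries a group, an exact permutation test of a single value cannot go below p = 0.33. At this depth, differences in genes of few counts such as Cln3 (766 counts) and Gabarapl2 (620) carried SEs of 0.18 on the log2 scale.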
